A study of Homo sapiens with 17 samples.

Results

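The human zinc finger genes named ZNF plus a number include 240 on chromosome 19 and about as many elsewhere, and those outside chromosome 19 are described here. They were taken as protein-coding genes whose symbol is ZNF followed by digits alone, on chromosomes 1 to 18 and 20 to 22 of GRCh38, which gave 227 of 19974 protein-coding genes on chromosomes 1 to 22 and X. A gene was called clustered when another ZNF gene, a letter after the number allowed, lay within 100 kb. By this measure 105 genes were clustered and 122 were single, with median lengths of 19.9 kb and 29.4 kb. The rule used symbol and position alone and no measured value.

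The measurements are peak lists from ChIP-seq (sequencing of immunoprecipitated chromatin) in the human lung carcinoma cell line A549, with 2 biological replicate libraries per group. The A549 line carrying A-Fos integrated with piggyBac, a transposon system, was profiled for FOXA1 and for FOSL2 (with an antibody to Fra2, the FOSL2 protein) after 48 h in 1 µg/mL doxycycline and without doxycycline. A-Fos is a dominant-negative Fos protein that takes up AP-1 partners, and doxycycline induces it. The WT line, which was untreated, was profiled for FOXA1, H3K9me3 and H3K27me3. Neither doxycycline-treated cells lacking A-Fos nor histone marks in the A-Fos line were analysed here, so effects of doxycycline itself cannot be told apart from those of A-Fos, and the marks describe WT cells only. Whether the A-Fos line is 1 clone or a pool is not given in the sources used here.

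Most ZNF genes encode DNA-binding proteins with arrays of C2H2 zinc fingers, and many of these carry a KRAB domain that recruits TRIM28 (KAP1) and the methyltransferase SETDB1, which writes H3K9me3. The genes themselves are known to carry H3K9me3 in many human cell types, mainly over their long last exons, which encode the fingers. H3K27me3 is the mark of Polycomb repression, typical of developmental genes that a cell type does not use. FOXA1 is a forkhead factor that can bind closed chromatin and acts in lung, liver and other epithelia, and FOSL2 is a Fos-related subunit of AP-1.

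H3K9me3 covered many of these genes but was usually absent at their starts, and the promoters of 5 genes show the range. Each line gives the 250 bases before the start in RefSeq GRCh38.p14, 5′ to 3′ on the strand of the gene. Capitals mark a match to the forkhead motif TGTTTAC or TGTTTGC or to the AP-1 motif TGANTCA, searched on both strands. ZNF140 (chr12:133080673-133080922, plus strand) had the highest mean H3K9me3 cover of the gene, and neither library had the mark over its promoter. ZNF679 (chr7:64228224-64228473, plus strand) had the mark over gene and promoter alike. ZNF883 (chr9:113012193-113012442, minus strand) was covered by H3K9me3 and had WT FOXA1 at its start. ZNF282 (chr7:149195296-149195545, plus strand) had the WT FOXA1 peaks of highest rank at a start. ZNF334 (chr20:46513560-46513809, minus strand) was covered by H3K27me3.
ZNF140: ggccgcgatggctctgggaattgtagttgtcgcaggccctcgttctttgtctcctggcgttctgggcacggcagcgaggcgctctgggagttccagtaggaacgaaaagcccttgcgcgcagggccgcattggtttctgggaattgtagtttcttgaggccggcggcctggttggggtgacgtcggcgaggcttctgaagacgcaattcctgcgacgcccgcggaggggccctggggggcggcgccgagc
ZNF679: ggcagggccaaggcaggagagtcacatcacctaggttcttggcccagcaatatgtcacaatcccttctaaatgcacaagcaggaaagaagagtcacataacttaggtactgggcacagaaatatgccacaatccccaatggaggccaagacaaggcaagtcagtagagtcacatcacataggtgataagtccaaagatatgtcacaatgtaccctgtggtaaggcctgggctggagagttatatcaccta
ZNF883: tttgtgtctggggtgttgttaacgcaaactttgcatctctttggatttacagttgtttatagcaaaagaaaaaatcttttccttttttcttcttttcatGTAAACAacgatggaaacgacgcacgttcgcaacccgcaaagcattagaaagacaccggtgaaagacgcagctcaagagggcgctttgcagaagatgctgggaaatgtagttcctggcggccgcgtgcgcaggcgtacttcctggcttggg
ZNF282: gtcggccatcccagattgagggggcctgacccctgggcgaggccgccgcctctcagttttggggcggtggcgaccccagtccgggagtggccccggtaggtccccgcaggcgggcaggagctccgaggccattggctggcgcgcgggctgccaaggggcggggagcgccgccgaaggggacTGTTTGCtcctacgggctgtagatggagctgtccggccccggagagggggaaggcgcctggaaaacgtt
ZNF334: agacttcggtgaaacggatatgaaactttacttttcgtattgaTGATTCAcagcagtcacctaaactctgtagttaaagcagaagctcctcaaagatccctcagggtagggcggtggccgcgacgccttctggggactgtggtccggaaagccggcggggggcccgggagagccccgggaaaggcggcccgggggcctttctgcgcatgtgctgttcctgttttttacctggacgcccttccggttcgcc

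The letters of these promoters differ in their content of CpG, the dinucleotide that is dense in the promoters of widely used genes. The stretch shown for ZNF140 holds 25 CpG and that of ZNF282 holds 23, while ZNF679 has 0. ZNF334 holds 18 and ZNF883 holds 15. Of the 227 genes, 188 were in the promoter table, which also gives the strand, and the other 39 were not given a start. The motif matches were TGATTCA in ZNF334, GTAAACA, the reverse complement of TGTTTAC, in ZNF883, and TGTTTGC in ZNF282. Neither motif was found in the letters shown for ZNF140 and ZNF679.

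H3K9me3 cover of the ZNF genes ran from none to nearly the whole gene. A gene was called covered when peaks lay over at least 50% of its body in each of the 2 libraries. H3K9me3 covered 71 of 227 genes, or 31.3%, against 2.19% of all protein-coding genes. The median cover was 8.37% and 9.59% in the 2 libraries, against 0% in both for protein-coding genes other than ZNF genes. By the mean of the libraries, 115 genes lay below 10%, 55 lay at 70% or more and 57 between. At the upper end 29 genes had at least 80% in both libraries, and at the lower end 62 had no peak in either (27.3%, against 50.8% of all genes). ZNF genes of chromosome 19 were covered more often, in 185 of 240 cases, with medians of 81.5% and 86.4%.

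Clustered genes carried most of the mark. H3K9me3 covered 51 of 105 clustered genes (48.6%) and 20 of 122 single genes (16.4%). The medians were 46.4% and 54.4% in clustered genes, against 3.04% and 3.00% in single genes, a difference of 47.4 percentage points ± 5.72 (mean ± SD over the 2 libraries). In each library the median of clustered genes was more than 40 points above that of single genes. No test was made of this difference, since genes of 1 run share their surroundings and are not replicates. Single genes still stood above protein-coding genes other than ZNF genes, of which 0.923% were covered.

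The 2 libraries gave similar values for most genes. Among the 165 genes with H3K9me3 in either library, the median absolute difference was 3.54 percentage points, and library 2 was higher in 115. The largest differences were in ZNF501 (54.0% in library 1 and 90.2% in library 2), ZNF202 (45.2% and 72.2%), ZNF658 (43.5% and 20.5%), ZNF25 (49.7% and 70.5%) and ZNF680 (57.6% and 77.5%). ZNF202 and ZNF25 lay on different sides of 50% in the 2 libraries, ZNF501 and ZNF680 above it in both and ZNF658 below it in both. Just inside the threshold were ZNF662 (50.2% and 50.0%), ZNF860 (51.0% and 61.1%) and ZNF184 (51.3% and 52.5%), and just outside were ZNF25, ZNF718 (46.4% and 53.1%) and ZNF322 (46.0% and 58.2%).

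**Figure D1:**
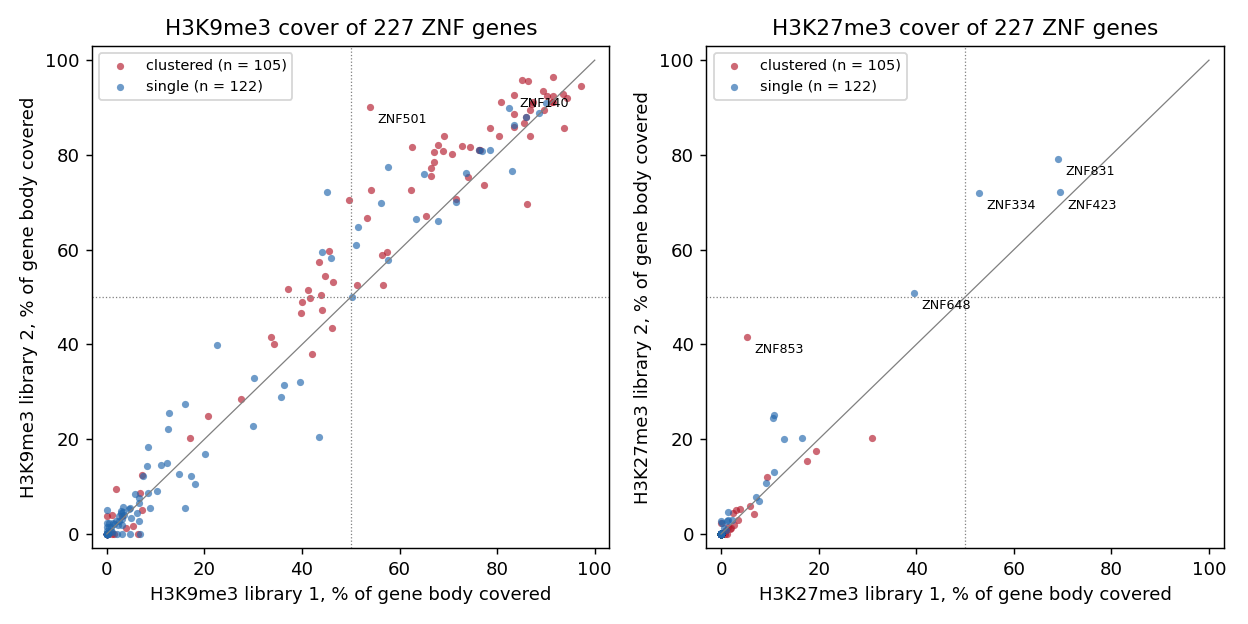
Percent of each of the 227 gene bodies covered by H3K9me3 (left) and H3K27me3 (right) in library 1 (x axis) and library 2 (y axis); red points are clustered genes, blue points single genes, dotted lines the 50% threshold and the grey line equality. H3K9me3 values spread along the whole diagonal with ZNF140 near the top, while for H3K27me3 nearly all genes sit near 0 and 3 lie beyond 50% in both libraries.

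The most covered genes were almost wall to wall under the mark. ZNF140, a KRAB zinc finger gene on chromosome 12, had 97.2% and 94.6%. ZNF7 on chromosome 8 had 91.4% and 96.4%, and ZNF879 on chromosome 5 had 93.5% and 92.9%. A single peak of 30.4 kb in library 1 ran over ZNF140 and reached into its neighbour ZNF891, and library 2 had a peak of 22.3 kb there. The next were ZNF605 (94.2% and 92.0%), ZNF263 (91.4% and 92.4%), ZNF26 (89.4% and 93.6%), ZNF16 (91.5% and 91.2%), ZNF287 (90.2% and 92.4%), ZNF12 (91.2% in both) and ZNF2 (86.3% and 95.7%). All 10 are clustered genes, and H3K27me3 was at 0% in each of them in both libraries.

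Some runs of neighbouring ZNF genes were covered as a block, but more of them held covered and uncovered genes together. The 105 clustered genes formed 32 runs in which each gene lay within 100 kb of the next. H3K9me3 covered every one of the described genes in 6 runs, some of them in 15 and none in 11. Among the 12 runs of at least 4 ZNF genes, which hold 59 of the genes, the counts were 3, 7 and 2.

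The run from ZNF605 to ZNF268 at the end of the long arm of chromosome 12 (297 kb) was covered throughout. Its 7 genes had 85.9% to 97.2% in library 1 and 85.6% to 94.6% in library 2. ZNF10 (KOX1), the gene whose KRAB domain is widely used as an artificial repressor, had 87.1% and 90.8%, and ZNF84 had 85.9% and 88.0%. The 4 genes from ZNF695 to ZNF124 on chromosome 1 were also all covered, at 62.3% to 83.5% and 72.7% to 85.8%. On chromosome 5, ZNF454 (85.0% and 95.9%) and ZNF879 were covered.

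The opposite case was the run from ZNF768 to ZNF689 on chromosome 16. Its 6 genes (ZNF768, ZNF747, ZNF764, ZNF688, ZNF785 and ZNF689) lie within 86.8 kb, and H3K9me3 and H3K27me3 were both at 0% in every one in both libraries. The 6 genes from ZNF786 to ZNF783 on chromosome 7 had 0.967% to 17.1% in library 1 and 0% to 20.3% in library 2, with ZNF786 the highest in both. Both runs hold ZNF genes at least as densely as the chromosome 12 run does.

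Some runs held both kinds side by side. On the short arm of chromosome 16, ZNF205 and ZNF213 had 0% in both libraries, while ZNF200 (80.8% and 91.2%), ZNF263, ZNF174 (86.7% and 89.5%) and ZNF597 (70.7% and 80.2%) were covered. In the run at the end of chromosome 8, ZNF251 had 0% in both libraries and ZNF517 had 7.16% and 5.06%. In the same run ZNF34 (56.3% and 58.9%), ZNF250 (83.5% and 88.7%), ZNF7 and ZNF16 were covered. ZNF517 lies between ZNF34 and ZNF7, so the mark was low in a gene with covered genes on either side.

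Other mixed runs had values nearer the threshold. In the run from ZNF445 to ZNF501 on chromosome 3, 6 of 7 genes were covered and ZNF445 had 45.6% and 59.7%. In the run from ZNF595 to ZNF721 on chromosome 4, ZNF141 (66.5% and 75.6%) and ZNF721 (68.9% and 80.9%) were covered, while ZNF732 had 33.7% and 41.7% and ZNF595 had 42.1% and 37.9%. From ZNF107 to ZNF117 on chromosome 7, ZNF107 (67.0% and 80.6%) and ZNF273 (53.4% and 66.8%) were covered, while ZNF138 had a mean of 44.5%. The chromosome 10 runs held 3 covered genes of 4 (ZNF239, ZNF485 and ZNF32, with ZNF487 at 46.2% and 43.5%) and 1 of 2 (ZNF248, beside ZNF25).

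**Figure D2:**
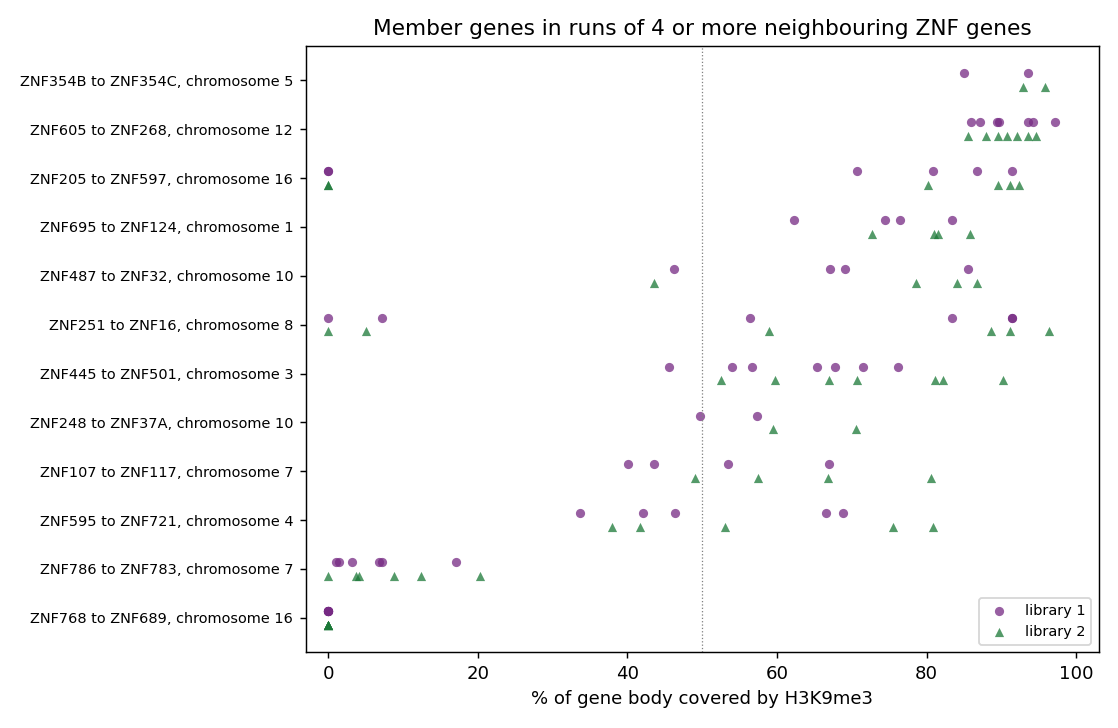
Percent of the gene body covered by H3K9me3 (x axis) for each described gene in the 12 runs of at least 4 neighbouring ZNF genes (rows, named by first and last gene); circles are library 1, triangles library 2 and the dotted line is 50%. The chromosome 12 run lies above 85% throughout, the lowest row lies at 0%, and the rows for the short arm of chromosome 16 and the end of chromosome 8 hold genes at both extremes.

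Along covered clustered genes the mark dipped at the start, while in covered single genes it was at about the same level before and just after the start. The high cover over the rest follows from how these genes were selected. In the 43 covered clustered genes with known strand, mean H3K9me3 was 64.7% and 65.2% of the last 5 kb before the start and 40.5% and 40.1% of the first twentieth part of the gene. It stood at 82.3% and 89.1% in the tenth part. In the 18 covered single genes the values were 39.0% and 40.6% before the start, 35.6% and 39.9% in the first part and 65.2% and 71.0% in the tenth. The bin before the start and the parts of the gene differ in length, so similar means do not show that single genes lack a gap. By the start in the promoter table, 35 of the 43 clustered and 14 of the 18 single genes had a start free of the mark in both libraries. Beyond the far end, between 45 and 50 kb, clustered genes still had 55.5% and 54.8%, against 15.0% and 11.1% in single genes. In the 127 genes that were not covered the mean was 4.09% and 5.15% in the first part, with its highest value of 15.7% and 16.5% in part 18 of 20.

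**Figure D3:**
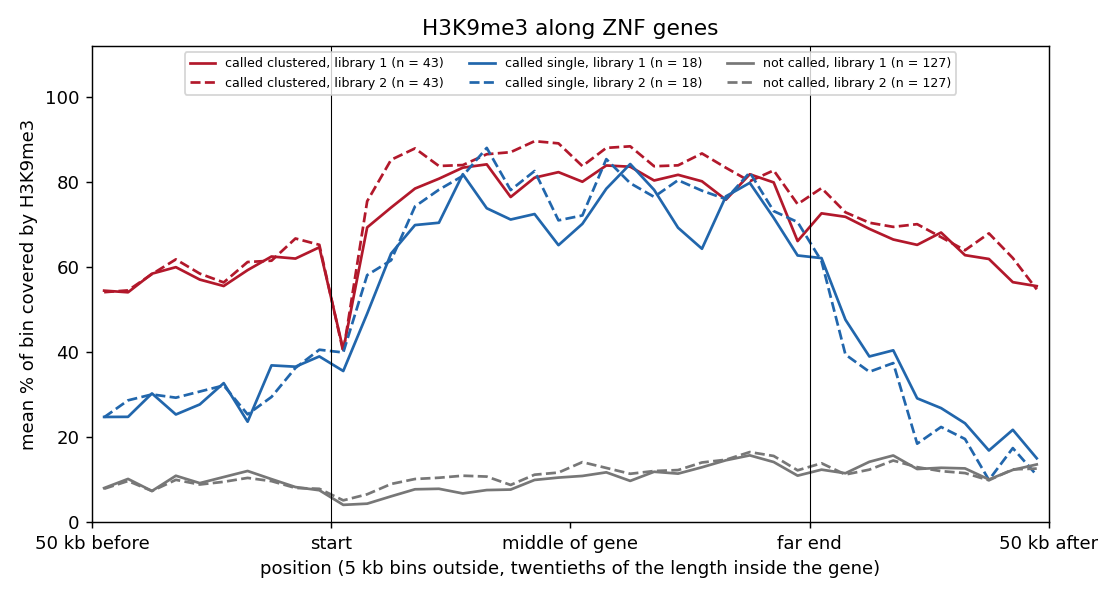
Mean percent of each bin covered by H3K9me3 (y axis) from 50 kb before the start to 50 kb after the far end (x axis, 5 kb bins outside the gene and 20 equal parts inside); red lines are covered clustered genes, blue lines covered single genes and grey lines genes not covered, solid for library 1 and dashed for library 2. Covered clustered genes dip to about 40% just inside the start, and covered single genes fall away on both sides of the gene.

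The same asymmetry appeared at the ends. A peak within 1 kb of either end in both libraries was found in 105 of 227 genes (46.3%), against 9.85% of all genes. With strand known, the far end had the mark in 84 of 188 genes (44.7%, against 6.94% of all genes) and the start in 55 (29.3%, against 5.25%). For these counts the start is the upstream edge of the gene interval. It lay within 1 kb of the start in the promoter table for 169 of the 188 genes. Far end without start occurred in 33 genes, and start without far end in 4. Among the 15407 protein-coding genes other than ZNF genes with known strand, the numbers were 608 and 395. ZNF436 on chromosome 1, a covered gene at 73.6% and 76.1%, is an example with the mark at its far end and none within 1 kb of its start.

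At the start itself most covered genes had a gap in the mark. For the gaps the start is that of the promoter table. Of 61 covered genes with a known start, 49 had a start free of H3K9me3 in both libraries and 7 had it covered in both. The stretch free of the mark had a median length of 1.79 kb in library 1 and 1.67 kb in library 2 over those 49, with interquartile ranges of 1.18 to 3.80 kb and 1.19 to 3.39 kb. Some gaps were far longer and unlike between the libraries, at 59.9 and 458.6 kb for ZNF184 and 84.6 and 178.1 kb for ZNF3. At ZNF140 the gap was 1.17 kb and 1.27 kb. It separated a peak of 9.99-fold enrichment ending at position 133080010 from a peak of 14.8-fold beginning at 133081181 in library 1. In library 2 the corresponding positions were 133080127 and 133081395. The 250 bases printed above lie inside both gaps.

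The 7 genes with a covered start were ZNF273, ZNF454, ZNF479, ZNF501, ZNF597, ZNF679 and ZNF716. Their promoters ranged widely in CpG. Over the promoter window of 300 bp, 250 before to 50 after the start, ZNF679 had 0 CpG, ZNF479 had 1 and ZNF716 had 7, while ZNF273 had 25 and ZNF454 and ZNF501 had 27 each. Over all 188 genes H3K9me3 touched the window in both libraries in 16 (8.51%, against 1.94% of all genes). The median CpG number was 9.5 in these 16 windows, against 24 over the 188 and 22 over all 15812 promoters. Many of the 16 lie on chromosome 7, where ZNF722, ZNF727, ZNF735, ZNF736 and ZNF117 had 9, 8, 10, 9 and 2 CpG. Those on other chromosomes had 15 (ZNF695) to 27, except ZNF658 with 4. The low median thus rests largely on the chromosome 7 genes. CpG was low in the marked promoters by the median but not in each of them, and its part in the result was not tested.

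Some of the other genes beside the covered ZNF genes were covered too. For each of the 71 covered genes the nearest protein-coding gene that is not a zinc finger gene of this naming was taken, at a median distance of 31.7 kb. H3K9me3 covered 19 of these 71 neighbours, against 2.19% of all genes, and their medians were 10.3% and 12.3%. The 71 neighbours are 49 distinct genes, so some were counted for several ZNF genes, as was the covered ANHX for ZNF140, ZNF891, ZNF10 and ZNF268. Some covered neighbours lie at 0 kb, such as TIGD7 beside ZNF263 and COMMD5 beside ZNF7, and can share covered sequence with the ZNF gene. The 19 of 71 is therefore not directly comparable with the share of all genes. The ZNF genes themselves had medians of 76.4% and 81.6%, values that their selection at 50% or more fixes in part. Beside covered clustered genes the neighbours had medians of 17.0% and 23.4%, and beside covered single genes 5.48% and 0%.

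H3K27me3 was rare on these genes. It covered 3 of 227 (1.32%), against 5.04% of all genes, and all 3 are single. ZNF423, which encodes a partner of EBF and SMAD proteins, had 69.5% and 72.1%. ZNF831 had 69.1% and 79.1%, and ZNF334 had 52.9% and 72.0%. In ZNF334 H3K9me3 also lay over 36.3% and 31.4% of the body, and both marks had peaks at the promoter printed above. In library 1 both peaks reached into it, while in library 2 the H3K27me3 peak did and the H3K9me3 peak stopped short of it.

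Below the threshold H3K27me3 reached 39.6% and 50.9% in ZNF648, 30.9% and 20.3% in ZNF232, 5.38% and 41.6% in ZNF853, 19.5% and 17.4% in ZNF467, and 16.6% and 20.3% in ZNF503. ZNF521, a regulator of blood progenitors, had 10.7% and 24.6%, and ZNF683 (Hobit), a factor of tissue-resident lymphocytes, had a mean of 17.9% with library 2 the higher. ZNF853 and ZNF334 differed most between the libraries, and library 2 was the higher in both. No peak was found in the body of 187 genes (82.4%, against 63.6% of all genes). A peak within 1 kb of either end in both libraries was found in 21 genes (9.25%, against 24.2%), and library 2 alone gave 32. At the start there were 14 of 188 (7.45%, against 19.1%) and at the far end 5 (2.66%, against 10.9%).

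No gene was covered by both marks, but H3K27me3 covered 3 genes only, so little can be read from it. An H3K27me3 peak in both libraries lay in 9 of the 71 genes covered by H3K9me3 and in 35 of all 227. ZNF232 on chromosome 17 came closest, with H3K9me3 at 86.1% and 69.6% beside its H3K27me3. A further 58 genes had neither mark in the body in any library, and the like share of all genes was not counted. Taken singly, 50.8% of all genes had no H3K9me3 peak in the body and 63.6% no H3K27me3 peak. Among the 58 were ZNF143, a transcription factor of widely used promoters, and ZNF217, a gene amplified in breast carcinoma.

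Few genes for the machinery of these marks were covered, as few of all genes were. Of 21 genes for KAP1 partners and heterochromatin proteins, H3K9me3 covered 1, beside 2.19% of all genes. That gene was ZNF274 on chromosome 19, whose protein is known to bring SETDB1 to the ends of ZNF genes, at 96.7% and 96.9%. TRIM28 had 0% in both libraries and SETDB1 had 5.26% and 9.64%. Of 20 Polycomb genes 0 were covered by either mark, beside 2.19% of all genes for H3K9me3 and 5.04% for H3K27me3, and BMI1 had the most H3K27me3 at 27.4% and 30.3%. As a check of the cell type, the 5 epithelial marker genes EPCAM, KRT8, KRT18, KRT19 and CDH1 had at most 6.47% H3K9me3 and 0.820% H3K27me3 in any library. Of 9 marker genes of blood, muscle, neuron and endothelium, H3K27me3 covered 1, the muscle regulator MYOD1, at 84.2% and 84.1%. The other 8 ranged widely, with CD3E at 45.2% and 52.1%, NEUROD1 at 29.8% and 50.6%, SYN1 at 10.3% and 24.0%, CD34 at 13.4% and 18.6%, PECAM1 at 11.3% and 14.1%, CDH5 at 4.67% and 4.92%, and MYOG and PTPRC at 0% in both libraries.

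FOXA1 in WT cells was found near a smaller share of these genes than of all genes. A peak within 50 kb in both libraries was found for 144 of 227 genes (63.4%, against 75.8% of all genes), with 154 in library 1 and 182 in library 2. Clustered genes had a peak in both libraries in 50 of 105 cases (47.6%), against 94 of 122 single genes (77.0%) and 76.1% of protein-coding genes other than ZNF genes. The median number of peaks within 50 kb was 1 and 2 for clustered genes, against 2 and 4 for single genes. Clustered genes are also shorter, which narrows the window searched, and the part of length in this difference was not tested.

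Among clustered genes the share was lower where H3K9me3 covered the gene, and no test was made of this. Covered clustered genes had FOXA1 in both libraries in 17 of 51 cases (33.3%) and clustered genes that were not covered in 33 of 54 (61.1%). Covered single genes had it in 14 of 20 cases and the remaining single genes in 80 of 102 (78.4%). In library 1 the share in covered clustered genes was 37.3%, against 66.7% in other clustered genes. In library 2 it was 68.6% against 75.9%, so the gap was smaller in the longer list. In single genes the counts were 16 of 20 covered genes against 83 of 102 others in library 1, nearly equal shares, and 15 of 20 against 91 of 102 in library 2. Inside the gene bodies 12 of 145 FOXA1 peaks (8.28%) in library 1 and 27 of 301 (8.97%) in library 2 touched H3K9me3 that both libraries shared, which made up 19.1% of the 10.1 Mb of gene body. Of all FOXA1 peaks in the genome, 3.38% and 2.45% touched it. A share of peaks, where any overlap counts, is not the same measure as a share of bases. The mark was also denser in these genes, with a mean cover of 29.9% and 32.4%, against 4.00% and 3.54% in protein-coding genes other than ZNF genes. The shares of peaks in these genes and in the genome therefore have unlike backgrounds.

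**Figure D4:**
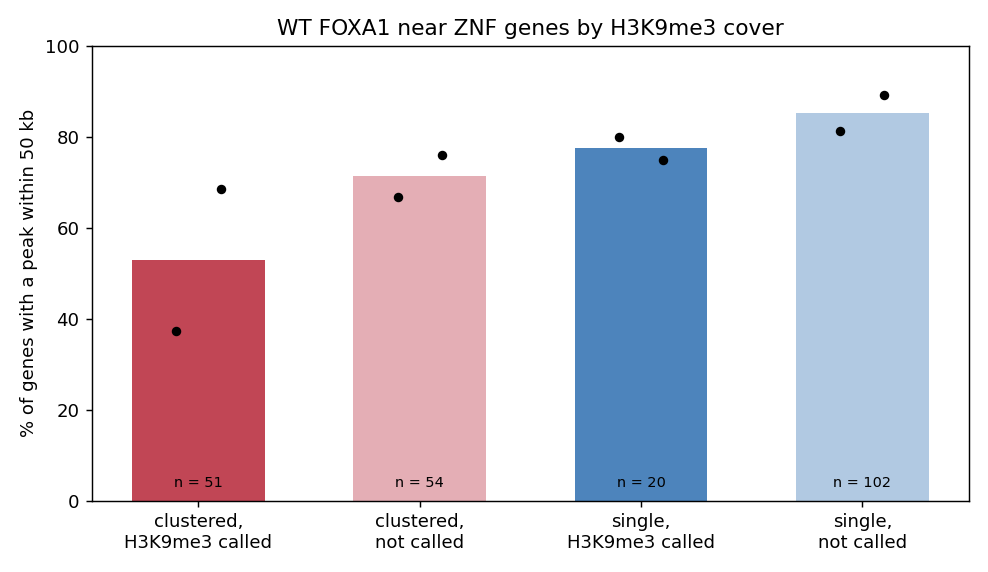
Percent of genes with a WT FOXA1 peak within 50 kb (y axis) for clustered genes covered by H3K9me3, other clustered genes, covered single genes and other single genes; bars are means of the 2 libraries and points the libraries, library 1 on the left. Covered clustered genes are lowest, at 37.3% and 68.6%, and single genes that are not covered are highest, at 81.4% and 89.2%.

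At gene starts WT FOXA1 was about as frequent as elsewhere. A peak within 1 kb of the start in both libraries was found for 17 of 188 genes (9.04%, against 10.1% of all genes), 13 of them single. This count takes the upstream edge of the gene interval as the start. ZNF688, with FOXA1 over its promoter window in both libraries, is therefore not among the 17. ZNF282, a KRAB zinc finger gene, had the highest ranks, with peaks of 33.6-fold and 73.1-fold enrichment at the 97.1 and 98.2 percentiles of their lists. Both peaks span the TGTTTGC at positions 149195477 to 149195483 in the printed promoter, 69 bases before the start. ZNF408 stood at the 90.5 and 95.8 percentiles, ZNF148, which encodes a GC-box binding factor, at 91.3 and 93.3, and ZNF487 at 90.9 and 93.2.

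Of these 17 genes, 5 were covered by H3K9me3. That is 8.20% of the 61 covered genes with known strand, against 9.45% of the 127 others, so the shares were similar. At ZNF883 the FOXA1 peaks (113012172 to 113012564 and 113012090 to 113012517, 15.0-fold and 15.5-fold) lay across the end of an H3K9me3 peak. The H3K9me3 peaks that they overlapped in part ended at 113012275 in library 1 and 113012178 in library 2. The start of the gene was thus under the mark in library 1 and free of it in library 2. In library 1 a further H3K9me3 peak began at 113012615. Both FOXA1 peaks span the GTAAACA at 113012337 to 113012343, which lies outside the H3K9me3 peaks of either library. ZNF195 (86.6 and 88.8 percentiles), ZNF484 (80.7 and 84.0) and ZNF483 (74.3 and 77.9) are further covered genes with FOXA1 at the start.

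The motif letters were no more frequent in these promoters than in others. TGTTTAC was found in 3 of 188 promoter windows (1.60%, against 2.62% of all 15812), in ZNF532, ZNF589 and ZNF883. TGTTTGC was found in 4 (2.13%, against 3.16%). TGANTCA was found in 7 (3.72%, against 5.76%), in ZNF3, ZNF92, ZNF138, ZNF239, ZNF334, ZNF512 and ZNF789. A match is a description of letters and not of binding.

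The A-Fos line was used to ask how FOSL2 and FOXA1 stood near these genes when A-Fos was induced. FOSL2 lay within 50 kb of 12 and 43 of the 227 genes with doxycycline, against 157 and 79 without it. The means were 27.5 ± 21.9 and 118 ± 55.2 (SD, n = 2 libraries each), a difference of -90.5 genes and a ratio of 0.233. Without the first library lacking doxycycline the difference was -51.5 genes. The groups did not overlap, and an exact permutation test (two-sided) gave p = 0.33, the smallest that 2 against 2 libraries allow. All protein-coding genes showed it too, with 1365 and 3293 genes, against 15696 and 9012. The lists held 1854 and 5274 FOSL2 peaks with doxycycline, against 45586 and 14842 without it. When each list was limited to its 1854 strongest peaks the counts were 12 and 23 genes, against 17 and 16, a difference of 1 (exact permutation p = 1.0). At equal list length the groups therefore overlapped. This count takes no account of peak strength, so it cannot show whether FOSL2 binding was weaker with doxycycline. The highest fold enrichment in the FOSL2 lists was 6.57 and 6.77 with doxycycline, against 148 and 45.9 without it.

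In both libraries of a group, FOSL2 lay near 5 genes with doxycycline (against 3.75% of all genes) and near 69 without it (30.4%, against 44.0%), where single libraries gave 12 and 43 with doxycycline and 157 and 79 without it. The 5 genes were ZNF365, ZNF366, ZNF572, ZNF638 and ZNF678, all single. Without doxycycline the 69 comprised 50 of 122 single genes and 19 of 105 clustered genes. By library, single genes had FOSL2 in 98 and 54 cases and clustered genes in 59 and 25.

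Merging the 4 lists gave regions that were gained (present in both doxycycline lists and absent from the other lists), lost (the opposite) or kept (present in all 4). A lost FOSL2 region lay within 50 kb of 55 genes (24.2%, against 38.6% of all genes), at 84 distinct regions, since neighbouring genes can share a region. Kept and gained FOSL2 regions lay near 0 genes, against 0.0401% and 0.115% of all genes. The strongest lost region lay inside ZNF365 (chr10:62433016-62433731), at the 99.98 and 99.7 percentiles of the lists without doxycycline. Next were regions 37.3 kb from ZNF143 (99.9 and 99.4 percentiles), 19.2 kb from ZNF687 (99.7 and 98.9), 39.6 kb from ZNF608 (99.5 and 97.7), 32.3 kb from ZNF281 (97.4 and 99.2) and inside ZNF655 (99.3 and 96.9). H3K9me3 covered none of these 6 genes, beside 16.4% of all single and 48.6% of all clustered genes, so little can be read from it. Of the 6, 5 are single, and ZNF655 belongs to a run on chromosome 7.

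FOXA1 in the A-Fos line lay within 50 kb of 66 and 63 of the 227 genes with doxycycline, against 33 and 62 without it. The means were 64.5 ± 2.12 and 47.5 ± 20.5 (SD, n = 2 libraries each), a difference of 17 genes with p = 0.33 in the same exact permutation test. The groups did not overlap, but by 1 gene only, and without the first library lacking doxycycline the difference was 2.5, and without the second it was 31.5. The lists held 11112 and 15065 FOXA1 peaks with doxycycline, against 7633 and 13247 without it. When each was limited to its 7633 strongest peaks the counts were 50 and 39 genes, against 33 and 43, a difference of 6.5 with overlapping groups (exact permutation p = 0.667). Within 10 kb the groups overlapped too, with a difference of 7 (exact permutation p = 1.0). Over all protein-coding genes the counts were 7118 and 7632, against 5239 and 7540 (exact permutation p = 0.667). In both libraries of a group, FOXA1 lay near 45 genes with doxycycline (19.8%, against 28.9% of all genes) and near 27 without it (11.9%, against 24.0%). Clustered genes made up 9 of the 45 and 3 of the 27.

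**Figure D5:**
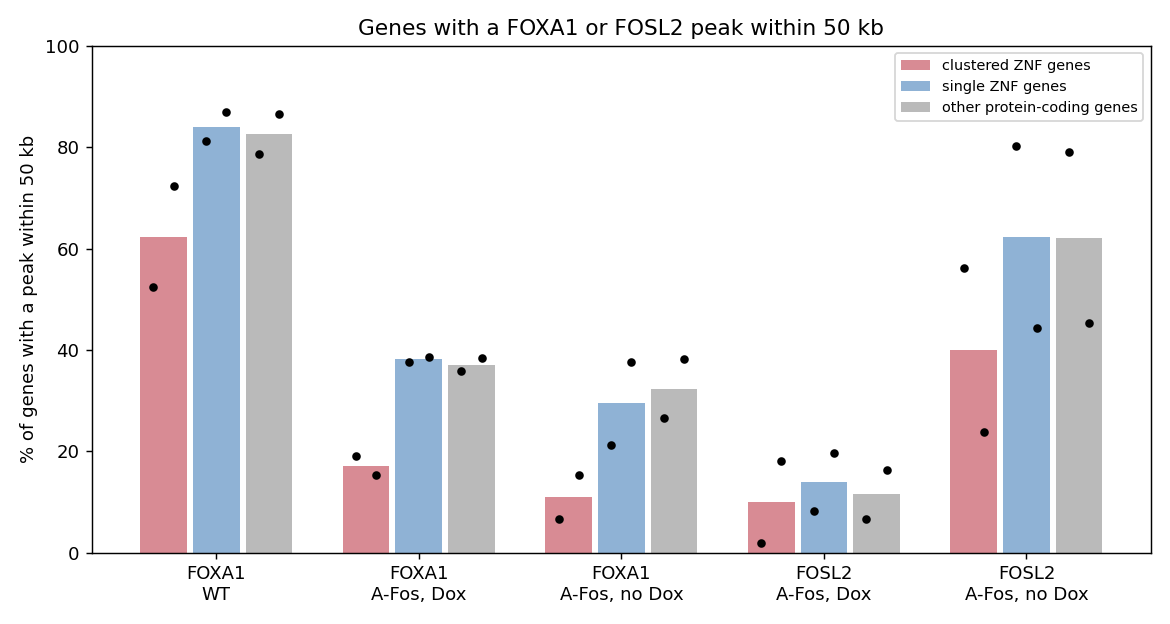
Percent of genes with a peak within 50 kb (y axis) in each group of libraries (x axis) for clustered ZNF genes (red), single ZNF genes (blue) and other protein-coding genes (grey); bars are means of the 2 libraries and points the libraries, library 1 on the left. Clustered genes have the lowest bar in every group, and for FOSL2 all 3 bars are lower with doxycycline.

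A kept FOXA1 region lay near 16 genes (7.05%, against 14.6% of all genes), a lost one near 12 (5.29%, against 8.97%) and a gained one near 9 (3.96%, against 6.92%). Single genes made up 15 of the 16, 10 of the 12 and all 9. The strongest kept region lay inside ZNF608 (chr5:124661230-124662888), at the 99.0 and 99.7 percentiles with doxycycline, against 99.3 and 99.9 without it. A region 40.2 kb from ZNF594 stood at 94.9 and 97.8, against 97.3 and 99.0, and a region near ZNF774 (37.7 kb) at 98.0 and 98.6, against 92.9 and 94.2. Near ZNF281 (32.2 kb) the values were 88.9 and 94.0, against 99.7 and 99.9, and near ZNF217 (25.7 kb) 95.6 and 97.3, against 78.9 and 91.7.

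Of the 12 lost FOXA1 regions near these genes, 6 overlapped FOSL2 binding seen in both uninduced libraries, as did 9 of 19 kept regions and 0 of 9 gained regions. Over the genome the shares were 40.3%, 20.7% and 0.704%. The strongest lost region lay inside ZNF169 (chr9:94278728-94279324), at the 95.8 and 97.0 percentiles of the FOXA1 lists without doxycycline. A lost FOSL2 region lay over it (94278537 to 94279284, at the 96.6 and 92.2 percentiles). The lost regions near ZNF277 (46.2 kb, 89.9 and 96.2 percentiles) and ZNF436 (7.51 kb, 80.9 and 89.4) overlapped FOSL2 as well, and so did that at 39.4 kb from ZNF608 (68.7 and 90.6). At ZNF148 the FOXA1 region 0.6 kb from the start, taken as the upstream edge of the gene interval, was lost and did not overlap FOSL2. It stood at the 63.9 and 73.4 percentiles without doxycycline.

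The gained FOXA1 regions lay 36.2 kb from ZNF76 (86.6 and 80.3 percentiles with doxycycline), inside ZNF365 (74.4 and 80.6), 49.8 kb from ZNF142 (77.0 and 71.0) and inside ZNF462 (77.8 and 62.7), and the other 5 stood lower in mean rank. ZNF365 had 3 kinds of change within 50 kb: the gained FOXA1 region inside the gene, a lost FOXA1 region 32.4 kb away and several lost FOSL2 regions. The lost FOSL2 regions lay inside the gene and 13.6 kb away. A FOSL2 peak within 50 kb was called in both doxycycline libraries, but no FOSL2 region there was kept or gained. ZNF608 had kept, lost and FOSL2-bound regions in the same span, 4 FOXA1 regions in all.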

How the data were processed

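Peak lists from 14 ChIP-seq libraries of A549 cells were used, and 3 inputs were not analysed. Groups and replicate numbers come from the sample titles. The lists deposited by the authors give a linear fold enrichment (ratio) for each peak, its p-value and q-value as −log10, a score of 10 times the −log10 q, and the offset of the summit. Per the submitters' processing notes the tools include fastp 0.23.2, BWA 2.2.1, SAMtools 1.8, DRAGEN, deepTools and MACS2, with build hg38; no settings are stated there. Each list is from 1 library, so peaks were not pooled. Per the labels 50 bp paired reads were sequenced, but the lists hold no counts, so the depth behind each is unknown, and list length may follow depth.

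Peaks off chromosomes 1 to 22 and X were dropped, and the others were set against gene intervals of RefSeq GRCh38.p14 in Python 3.11.15 with numpy 2.4.6 and pandas 2.3.3. Fold enrichments are the authors' and served to rank peaks within a list. Cover is the share of gene body under peaks, and regions were merged at an overlap of 1 bp. An end is the 1 kb on either side of an edge of the gene interval. Gaps at the start, CpG and motifs use the start in the promoter table instead. Counts between genes were described beside those of all genes, and doxycycline was tested over libraries with an exact two-sided permutation test. The interval functions were tested on simulated peaks over 451 genes, with 0 mismatches. The members and lists were chosen with earlier results of these data known. Named genes are, per mark, the 10 with highest mean cover of at least 5 kb in length and the 5 with the largest difference between libraries, genes in runs of 4 or more, those next to the threshold, up to 6 per state of each factor, up to 10 with a factor at an end, and ZNF10 and ZNF608. ZNF436, ZNF143 and ZNF217 as examples of marks, ZNF169 for its FOSL2 overlap the 5 printed promoters and the motif TGTTTGC were chosen after the values were seen. Alternatives were other thresholds, windows and cluster distances, the upper part of each list, lists of equal length, joined peaks, symbols with a letter after the number, each library left out, and a replicate block.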

Additional observations from a re-analysis of the deposited data

How the results depend on the processing

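Of 99 alternative values for 13 results, 78 stayed close, 20 moved and 1 changed sign, where close meant within 1.5 times for counts, within 1 SD of the libraries for the difference between clustered and single genes, and the same direction for doxycycline. Some of the values that stayed close had little or no room to move. A replicate block leaves the doxycycline difference unchanged by arithmetic. The H3K27me3 difference between clustered and single genes was 0 throughout, as most genes had no peak. The sign change was FOSL2 in lists of equal length, 1 gene in place of -90.5. For H3K9me3, a threshold of 75% left 36 covered genes in place of 71, and joining gaps of up to 1 kb raised the difference between clustered and single genes to 62.0 points. Covered genes ranged from 71 to 82 with a library left out, ends from 109 to 111 and the difference between clustered and single genes from 43.3 to 51.4 points. For H3K27me3, the 75% threshold left 0 covered genes, and windows of 2 kb gave 43 genes with a marked end, against 7 where a peak had to cover most of the window. Leaving out a library gave 29 to 32 such ends and 3 to 4 covered genes.

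For genes with a peak in both libraries, windows of 10 kb and 100 kb gave 20 and 81 for FOXA1 with doxycycline, 11 and 55 for FOXA1 without it, 2 and 14 for FOSL2 with it, and 34 and 111 for FOSL2 without it. The upper part of each list gave 2 for FOSL2 with doxycycline and 45 without it. Single libraries gave 154 to 182 genes for WT FOXA1, 63 to 66 for FOXA1 with doxycycline, 33 to 62 without it, 12 to 43 for FOSL2 with it and 79 to 157 without it. The cause of these shifts was not tested. With a library left out the doxycycline difference ranged from 2.5 to 31.5 for FOXA1 and from -129.5 to -51.5 for FOSL2.

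Same-numbered libraries were compared by the correlation of their deviations over 19974 genes, which was 0.13 for FOXA1 and -0.04 for FOSL2, so with 2 pairs the numbers were not taken as pairs. With a replicate block the differences were 17 for FOXA1 and -90.5 for FOSL2, with an exact sign-flip p of 0.5 each, the smallest 2 pairs allow. The peak lists hold no depth, so a gene without a peak is one in which none was called.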
